A study of Homo sapiens with 15 samples.

Results

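NOX1 encodes a superoxide-producing NADPH oxidase, and its transcript is described here across 15 expression arrays of Caco-2 cells. Caco-2 is a line from a human colon carcinoma that forms an enterocyte-like layer once confluent. It was 1 gene of 14884 with a named probe set, and 1 of 11804 that passed a filter on low values. The gene was selected from earlier results on these same arrays, for its levels in the 3 groups, so its levels and group differences are given as a description without a test. The filter did not rest on the group where NOX1 was high: its lowest value on any array was 6.56, and the filter's threshold lay between 5.03 and 5.09 on the log2 scale.

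The arrays formed 3 groups of 5. Control cells were untreated. The LPS group received lipopolysaccharide of E. coli K12, a ligand of the endotoxin receptor TLR4, at 1 µg/mL for 48 h. The LPS+RSV group received 50 µM trans-resveratrol, a plant polyphenol dissolved in ethanol, 1 h before the same exposure to LPS. All groups came from the same cell line, used 15 to 19 days after seeding, and 300 ng of RNA per sample was labelled for an array that covers whole transcripts. Nothing in the labels tells which sample came from which day, whether the LPS or control cells received ethanol, or whether numbered replicates were separate cultures. The p-values below therefore cover only the variation among these arrays, part of which may be technical. No group of the labels received resveratrol without LPS.

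NADPH oxidases are membrane enzymes that pass electrons from NADPH to oxygen. NOX1 is the form known from colon epithelium, and it depends on the membrane partner p22phox (gene CYBA), the organizer NOXO1, the activator NOXA1 and the small GTPase RAC1. Superoxide made by the enzyme turns into hydrogen peroxide, which peroxidases, peroxiredoxins and catalase remove.

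In the GRCh38.p14 annotation of RefSeq, NOX1 lies on the minus strand at chrX:100843324-100874359, a span of 31036 bases. The 250 bases before its annotated start are at chrX:100874360-100874609, and are shown because they hold matches to motifs of GATA and CDX factors, transcription factors of the intestine that belong to the list of NOX1 regulators examined below. The sequence is printed 5′ to 3′ on the strand of the gene, and capitals mark the GATA matches.

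NOX1 promoter: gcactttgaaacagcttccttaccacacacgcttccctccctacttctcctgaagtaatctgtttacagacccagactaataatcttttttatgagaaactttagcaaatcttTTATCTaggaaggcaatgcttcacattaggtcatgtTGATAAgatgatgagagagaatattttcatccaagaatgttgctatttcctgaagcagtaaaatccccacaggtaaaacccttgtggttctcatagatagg

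The motif AGATAA matched on the opposite strand, beginning 137 bases before the start, and TGATAA matched on the strand of the gene, beginning 101 bases before it. At least 1 match to either GATA motif, on either strand, was present in 14.6% of the 35116 RefSeq promoter windows of 250 bases. The CDX motif TTTAT matched at 162 and 138 bases before the start, the latter overlapping a GATA match, and 32.7% of the windows held it. The AP-1 motif TGANTCA, the STAT motif TTCNNNGAA and the ETS motif CCGGAA, each searched on both strands, had 0 matches in the NOX1 window, and were present in 6.57%, 6.57% and 14.5% of the windows. These matches describe letters in the sequence and say nothing of binding, which the arrays did not measure.

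Array medians over all probe sets lay between 5.49 and 5.54, and pairs of arrays correlated between 0.922 and 0.994 across the 11804 genes. LPS+RSV replicate 1 was the least like the rest, its correlations averaging 0.946. Without it the NOX1 log2 difference of LPS+RSV minus LPS was -1.91, against -1.94 with all arrays. LPS replicates 1 and 2, in which several genes described below were far above the other 3 LPS arrays, correlated at 0.990 with each other. That was not the closest pair of a group: control replicates 1 and 2 correlated at 0.993. Of the epithelial marker list 12 of 19 genes were tested, with list means between 8.79 and 9.61 over the arrays, and VIL1, EPCAM, KRT8, KRT19 and CDX2 were among them.

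NOX1 was represented by 1 probe set, and its log2 levels separated the LPS arrays from all others. In control replicates 1 to 5 the levels were 6.56, 6.95, 6.91, 6.71 and 6.75, a mean of 6.78 ± 0.16 (SD, n = 5). In LPS replicates 1 to 5 they were 9.51, 9.60, 7.89, 8.45 and 8.58, a mean of 8.81 ± 0.73 (SD, n = 5). In LPS+RSV replicates 1 to 5 they were 6.77, 7.13, 6.77, 6.83 and 6.85, a mean of 6.87 ± 0.15 (SD, n = 5). All 5 LPS arrays lay above all 10 other arrays, while the control and LPS+RSV ranges overlapped. In RNA from whole cultures, fewer cells carrying a transcript and less transcript per cell cannot be told apart.

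**Figure D1:**
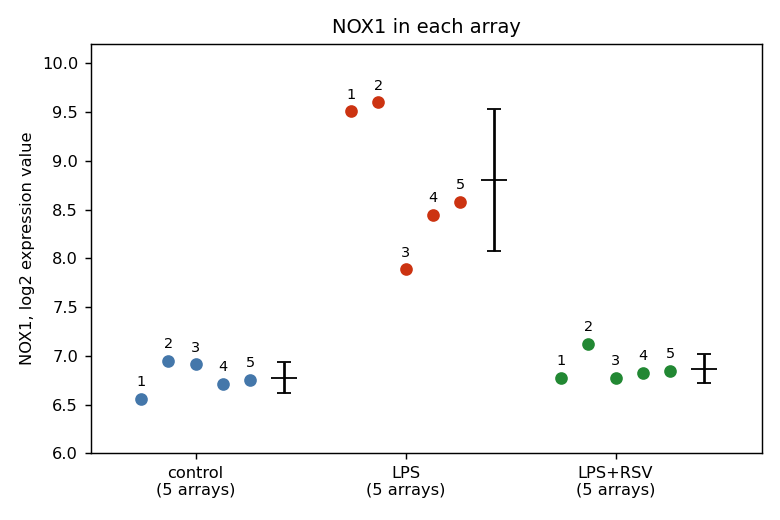
NOX1 level (log2 expression value) on each of the 15 arrays, by group; points are arrays labelled with their replicate number, and bars give the mean ± SD of 5 arrays. The LPS arrays run from 7.89 to 9.60, and the 10 other arrays all lie at or below 7.13.

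The mean of LPS was 2.03 above that of control on the log2 scale, a 4.08-fold higher level. Only 2 of the 11804 genes had a larger positive difference, CEACAM6 at 2.08 and CEACAM5 at 2.06, and both had a far larger spread in LPS. The mean of LPS+RSV was below that of LPS by a log2 difference of -1.94, a 3.83-fold lower level and the lowest difference of all genes. Between LPS+RSV and control the difference was 0.09, or 1.07-fold, and 49.0% of genes differed less in absolute size.

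The 5 LPS arrays did not share 1 level of NOX1. Relative to the control mean they were 6.64-, 7.08-, 2.16-, 3.19- and 3.49-fold higher, in order of replicate number. Their highest and lowest values differed by 1.71 on the log2 scale, or 3.28-fold, against 1.31-fold in control and 1.28-fold in LPS+RSV. The SD in LPS was 4.62 times that in control and 4.99 times that in LPS+RSV. Among all genes it ranked 25th, above 99.8% of genes, whose median SD in LPS was 0.13. In control and LPS+RSV the NOX1 spread was ordinary: 61.5% and 40.3% of genes had a smaller SD there.

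Even the lowest LPS array, replicate 3, stood clear of the other groups. It was 0.94 above the highest control array, a 1.92-fold distance, and 0.76 above the highest LPS+RSV array, a 1.70-fold distance. The 5 LPS arrays were all higher than the 5 control arrays for 1.08% of genes, above all 5 LPS+RSV arrays for 1.39%, and above all 10 others for 0.322%, which is 38 genes. NOX1 had the widest such distance of the 38, followed by ETV4 at 0.43, KRT18 at 0.24, LPGAT1 at 0.20 and ANKRD1 at 0.19. ETV4 is an ETS transcription factor whose gene responds to ERK signalling, and KRT18 is a keratin of simple epithelia. The next gene was NFE2L2, named after its values were seen, at 0.15; it encodes NRF2, a transcription factor of the antioxidant response.

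Without LPS replicates 1 and 2, a choice made after the data were seen, the mean of the other 3 LPS arrays was 8.31 ± 0.37 (SD, n = 3). NOX1 was then 1.53 above control on the log2 scale, or 2.89-fold, and this was the largest positive difference of all genes. Relative to these 3 arrays the difference of LPS+RSV was -1.44, which ranked 14th from the lowest. CEACAM5 and CEACAM6 were then 0.60 and 0.79 above control, at ranks 118 and 56.

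**Figure D2:**
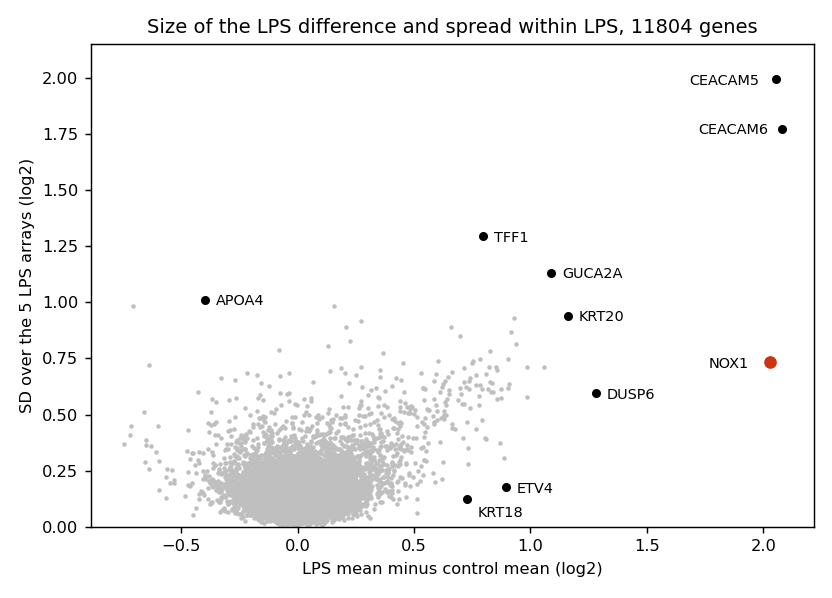
Difference of LPS minus control (log2) against the SD within the 5 LPS arrays (log2) for the 11804 genes tested, with NOX1 and other named genes marked. NOX1 lies at a difference of 2.03 and an SD of 0.73, between CEACAM5 with an SD of 1.99 and ETV4 with a difference of 0.89 and an SD of 0.18.

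The model fitted to all genes gives the background for the counts that follow. It was limma's moderated test with Benjamini-Hochberg adjustment over the 11804 genes, and a gene was called at an adjusted p under 0.05. It called 0.0254% of genes in LPS minus control, which were NOX1, ETV4 and KRT18. In LPS+RSV minus LPS it called 0.0424%, which were NOX1, ETV4, KRT18, TOP1 and CLYBL, and in LPS+RSV minus control 0% (0 genes). At an unadjusted p under 0.05 the shares were 7.88%, 18.6% and 10.5%. NOX1 was selected on these contrasts, so its own presence among the called genes is no result.

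The closest companions of NOX1 were sought first within groups, where the group means cannot make genes run together. Each gene was correlated with NOX1 over the 15 arrays after its group means were removed. These correlations are descriptions without a p: genes were picked by them, the arrays share cell line, platform and normalization, and the spread of NOX1 lay almost wholly in the 5 LPS arrays. Over all other genes the median r was 0.01, with 42 genes (0.356%) above 0.8 and 22 below -0.8. The 10 genes of highest r were F2R, SDCBP, TSPAN15, DSG2, TFPI, CEACAM5, NCEH1, IGFBP7, GLRX2 and EMP3, with r between 0.87 and 0.93.

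F2R, the thrombin receptor PAR1, had the highest r with NOX1, 0.93, with a Spearman rho of 0.77. Over the 10 control and LPS+RSV arrays alone the r of F2R was 0.14. Its levels in LPS replicates 1 to 5 were 8.43, 8.62, 7.82, 8.05 and 8.07, against 7.95 to 8.04 in control and 7.857 to 7.999 in LPS+RSV. F2R followed the order of NOX1 among the LPS arrays, but its lowest LPS array lay below every control array. Its group difference was 0.19 in LPS minus control, and -0.02 without LPS replicates 1 and 2.

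SDCBP, the scaffold protein syntenin-1, had r of 0.93 and rho of 0.84. Its levels in LPS replicates 1 to 5 were 6.98, 7.09, 6.24, 6.43 and 6.43, against 6.15 to 6.52 in control and 5.96 to 6.25 in LPS+RSV. Replicate 2 was highest and replicate 3 lowest, as for NOX1. Of the 10 genes SDCBP also had the highest r over the 10 control and LPS+RSV arrays, 0.64. The median of the 10 genes there was 0.27, and the lowest was -0.40 for EMP3.

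DSG2, a desmosomal cadherin that joins epithelial cells, had r of 0.90. Its levels in LPS replicates 1 to 5 were 9.83, 9.99, 8.81, 9.05 and 9.11, against 8.428 to 8.996 in control and 8.44 to 8.93 in LPS+RSV. Only LPS replicate 3 fell inside the range of the other groups. IGFBP7, a secreted binding protein of insulin-like growth factors, had r of 0.88 and LPS levels of 8.34, 8.27, 6.84, 7.24 and 7.69. Here too replicates 1 and 2 were highest and replicate 3 lowest.

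CEACAM5, the carcinoembryonic antigen of colon epithelium, had r of 0.89 but a different shape. Its levels in LPS replicates 1 to 5 were 10.79, 10.84, 7.02, 7.15 and 7.39, against 6.02 to 7.04 in control and 6.65 to 7.29 in LPS+RSV. The high level was thus found on replicates 1 and 2, and the other 3 LPS arrays reached into or near the range of the other groups. NOX1 on those 3 arrays was still above all control and LPS+RSV arrays.

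The 5 genes with the largest SD in LPS included several that shared this shape. CEACAM6, a related adhesion molecule, was at 10.14, 10.33, 6.94, 7.09 and 6.99 in LPS replicates 1 to 5. GUCA2A, the gut peptide guanylin, was at 9.53, 9.70, 7.46, 7.58 and 7.65. TFF1, a secreted trefoil peptide of mucosae, was at 10.38, 9.97, 8.05, 7.83 and 7.64. All 3 genes were far higher in replicates 1 and 2, and their r with NOX1 was 0.84, 0.86 and 0.80. Over the 13 arrays without those replicates it was 0.04, -0.03 and -0.49, so the likeness of all 3 rested on them. APOA4, an apolipoprotein of enterocytes with an SD of 1.01 in LPS, did not follow NOX1, with r of 0.04.

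KRT20, a keratin of mature colon cells, was at 7.62, 7.96, 6.34, 6.27 and 5.79 in LPS replicates 1 to 5, against 5.35 to 5.95 in control. It was likewise highest in replicates 1 and 2, with r of 0.66, which became -0.51 over the 13 other arrays. EMP3, a small membrane protein, was at 7.88, 8.32, 6.52, 6.59 and 6.62, and its r of 0.87 became -0.08 when the 2 arrays farthest from the NOX1 median, LPS replicates 1 and 2, were left out.

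Over those 13 arrays the r of the other 9 genes lay between 0.25 for CEACAM5 and 0.69 for IGFBP7, with 0.68 for F2R and 0.67 for SDCBP. The likeness of CEACAM5 and EMP3 to NOX1 therefore rested on LPS replicates 1 and 2. For the 50 genes of highest r the median r over the 13 arrays was 0.24. Over the 10 control and LPS+RSV arrays it was 0.22, with a range from -0.41 to 0.74. The median SD of these 50 genes was 0.34 in LPS and 0.10 in each of the other groups.

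Of the 50 genes that followed NOX1 most closely within groups, 48 were higher in LPS than in control, with a median log2 difference of 0.29, and 49 had a negative difference of LPS+RSV minus LPS, with a median of -0.34. Among all 11803 other genes 6217 were higher in LPS and 5656 lower in LPS+RSV than in LPS. The same LPS arrays enter the likeness and both differences, so these counts are not separate evidence. Of the 50 genes of lowest r, 5 were higher in LPS than in control, and 4 had a negative difference of LPS+RSV minus LPS.

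CX3CL1, the chemokine fractalkine, ran most clearly opposite to NOX1 within groups, with r of -0.88 and rho of -0.84. Its levels in LPS replicates 1 to 5 were 8.39, 8.43, 9.11, 8.66 and 8.79, against 8.78 to 9.05 in control and 8.90 to 9.25 in LPS+RSV. It was low in replicates 1 and 2, where NOX1 was high, and highest of the LPS group in replicate 3. The opposite course was also seen without LPS replicates 1 and 2, with r of -0.77 over 13 arrays, and over the 10 control and LPS+RSV arrays, with r of -0.65. ZNF853, NACA2, UNK and C1QTNF6 were the next lowest, with r from -0.88 to -0.86.

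**Figure D3:**
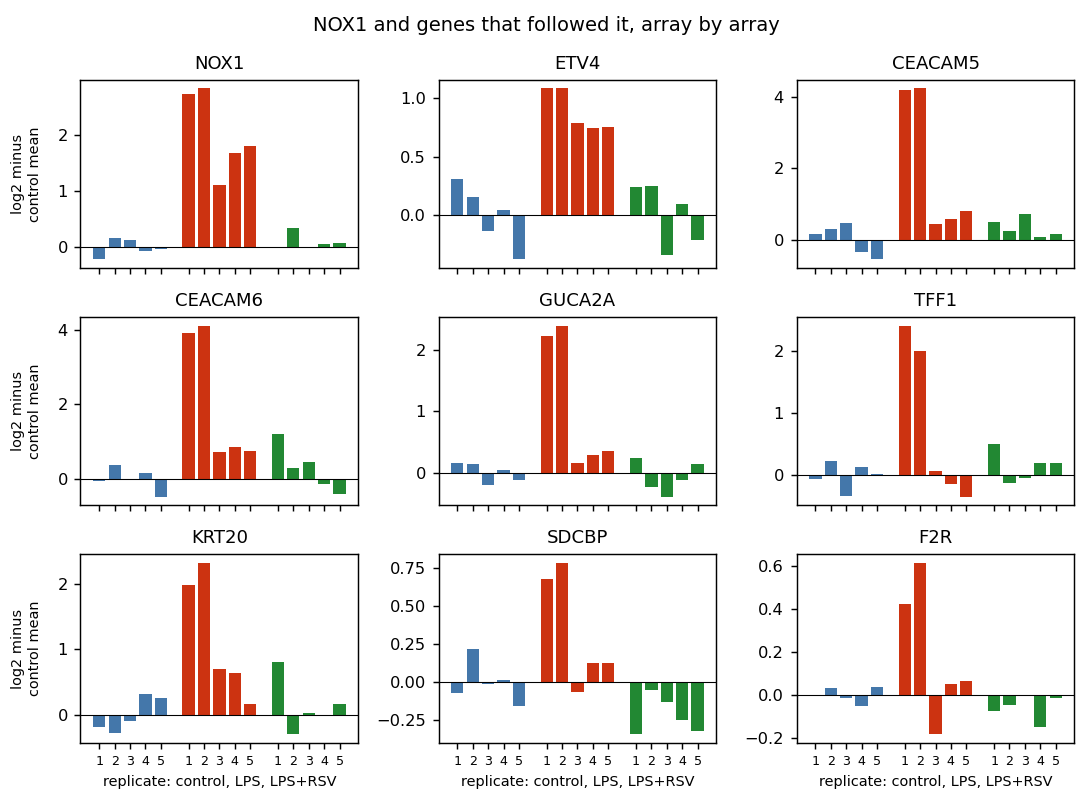
Level minus the control mean (log2) of NOX1 and 8 other genes, 1 bar per array numbered by replicate, in control (blue), LPS (red) and LPS+RSV (green); each gene has its own vertical scale. All 5 LPS bars of NOX1 and ETV4 exceed their other 10 bars, whereas CEACAM5, CEACAM6, GUCA2A and TFF1 are far higher on LPS replicates 1 and 2 than on the other 3 LPS arrays.

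When the group means were left in, likeness mostly recorded the pattern of high LPS and low other arrays. The 15 arrays then fell into 2 clusters of NOX1 levels, so r mixes that split with the spread within groups. The 10 highest were C3orf52, HOXB9, LPGAT1, ZBTB2, INPP1, HKDC1, MTUS1, ANKRD1, NCEH1 and SOX4, with r between 0.91 and 0.95. With group means removed, their r lay between 0.56 and 0.89. For 9 of these 10, all 5 LPS arrays lay above all 10 others, which held for 0.322% of genes and follows from how they were picked. The lowest were PARM1, ZNF844, PFDN5, INTS3 and BBS2, with r between -0.90 and -0.885.

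C3orf52, which encodes a membrane protein, was the gene of highest r. Its levels in LPS replicates 1 to 5 were 7.56, 7.27, 6.80, 7.07 and 7.0004, against 6.35 to 6.64 in control and 6.28 to 6.67 in LPS+RSV. HOXB9, a homeobox transcription factor, was at 8.57, 8.60, 7.79, 7.84 and 8.04 in LPS, against 7.19 to 7.46 in control and 7.24 to 7.79 in LPS+RSV. Both were highest in LPS replicates 1 and 2 and lowest in replicate 3, as was NOX1, with r of 0.79 and 0.81 once group means were removed. Over the 13 arrays without LPS replicates 1 and 2 these were 0.54 and 0.25.

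ETV4 and KRT18, called with NOX1 in both comparisons, were likewise highest in LPS but varied less among the LPS arrays. ETV4 was at 7.71, 7.71, 7.41, 7.37 and 7.38 in LPS replicates 1 to 5, against 6.25 to 6.94 in control and 6.28 to 6.87 in LPS+RSV. Its LPS arrays thus spanned a narrow range, and its r within groups was 0.38 over 15 arrays and 0.0081 over 13. KRT18 was at 10.60, 10.70, 10.38, 10.47 and 10.58 in LPS, with r of 0.46 and 0.43. CLYBL, also called in LPS+RSV minus LPS, ran the other way between groups, at -0.32 in LPS minus control and 0.58 in LPS+RSV minus LPS. KRT18 has pseudogenes that can share its probes, and its other probe set differed by 0.34 in LPS minus control, against 0.73 for the brighter one.

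No partner gene of the NOX1 enzyme that could be tested was called. Of 18 listed NADPH oxidase genes other than NOX1, 7 were tested, NOX4 and DUOXA2 lay below the filter, and 9 had no probe set named here, among them CYBA, RAC1 and CYBB. Of the 7 tested genes, 0 were called in LPS minus control, 0 in LPS+RSV minus LPS and 0 in LPS+RSV minus control, where the shares over all genes were 0.0254%, 0.0424% and 0%. At an unadjusted p under 0.05 in limma the counts were 0, 3 and 2, beside 7.88%, 18.6% and 10.5% of all genes. The median log2 differences of the 7 genes were -0.03, 0.06 and 0.11, beside 0.01, 0.01 and 0.02 over all genes.

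NOXO1, the organizer that holds the active NOX1 complex at the membrane, showed no separation of the groups. Its control levels were 6.49, 6.50, 6.63, 6.87 and 6.74, its LPS levels 6.46, 6.60, 6.71, 6.64 and 6.70, and its LPS+RSV levels 6.98, 6.67, 6.64, 6.92 and 6.90. All 3 ranges overlapped. The LPS minus control difference was -0.03 ± 0.09 (SE), with a 95% interval from -0.22 to 0.17 and limma adjusted p = 0.975. In LPS+RSV minus LPS it was 0.20 ± 0.09 (SE), opposite in sign to NOX1, with adjusted p = 0.251.

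NOXA1, the activator subunit, was at 7.03, 6.84, 7.22, 7.20 and 7.21 in control, at 6.95, 7.20, 7.29, 6.95 and 7.12 in LPS, and at 7.32, 7.20, 7.22, 7.20 and 7.36 in LPS+RSV. These ranges overlapped as well. The LPS minus control difference had a 95% interval from -0.18 to 0.19, with limma adjusted p = 0.994, and its sign turned with the scaling and with the array left out. In LPS+RSV minus LPS the difference was 0.16 ± 0.09 (SE), with adjusted p = 0.348. For both subunits the upper bounds in LPS minus control were far below the 2.03 of NOX1.

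SH3PXD2A and SH3PXD2B encode the scaffolds TKS5 and TKS4, which can organize NOX1 in place of NOXO1. In LPS minus control SH3PXD2A differed by -0.04 ± 0.07 (SE, limma adjusted p = 0.928) and SH3PXD2B by 0.15 ± 0.08 (SE, limma adjusted p = 0.682). SH3PXD2B was highest in LPS+RSV, at 0.20 above control (limma adjusted p = 0.464).

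The other oxidases of the family gave no call either. DUOX1, a dual oxidase that releases hydrogen peroxide, was at 5.47, 5.32, 5.52, 5.44 and 5.51 in control, at 5.29, 5.41, 5.46, 5.37 and 5.51 in LPS, and at 5.23, 5.26, 5.39, 4.97 and 5.10 in LPS+RSV. Its LPS+RSV arrays were the lowest, with overlap. The log2 difference was -0.22 ± 0.08 (SE) in LPS+RSV minus LPS (limma adjusted p = 0.176) and -0.26 ± 0.08 (SE) in LPS+RSV minus control (limma adjusted p = 0.464). DUOX2 and NOX3, an oxidase of the inner ear, differed by 0.02 and -0.18 in LPS minus control, with limma adjusted p = 0.986 and 0.8. For NOX3 the value was -0.06 without LPS replicate 5. NOX3 values near 5 lay close to the filter. DUOX1 in LPS+RSV replicate 4, at 4.97, and DUOX2 in LPS+RSV replicate 5, at 4.92, lay below the filter's threshold of 5.03 to 5.09. The group means of DUOX1, from 5.19 to 5.45, and of DUOX2, from 5.19 to 5.29, were also not far above it.

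**Figure D4:**
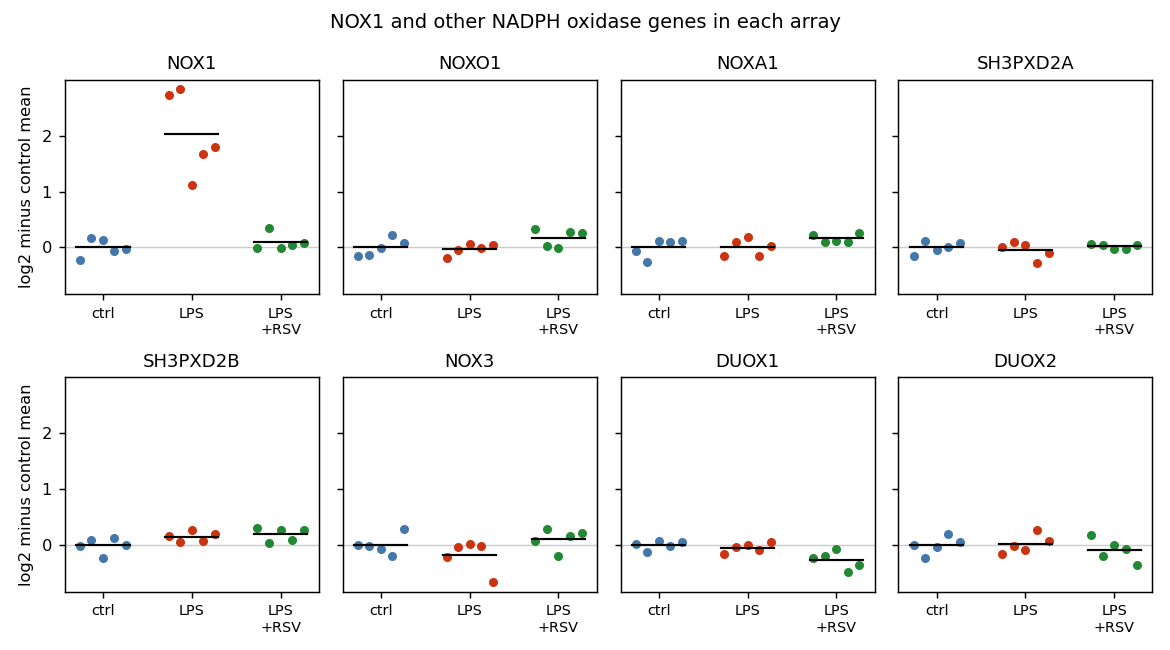
Level minus the mean of the control arrays (log2) for NOX1 and the 7 other tested NADPH oxidase genes; points are arrays, black lines are group means, and all panels share 1 vertical scale. The mean of NOX1 stands at 2.03 in LPS and 0.09 in LPS+RSV, and the group means of the other 7 genes lie between -0.26 and 0.20.

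Genes of superoxide and peroxide removal were examined because many of them handle what NOX1 makes. The list also held TXNIP, an inhibitor of thioredoxin, and HMOX1, a heme oxygenase, which do not themselves remove either. Of 25 listed, 18 were tested and 7 had no probe set named here, SOD1, SOD2 and NQO1 among them. None (0 of 18) was called in any of the 3 comparisons, where the shares over all genes were 0.0254%, 0.0424% and 0%. At an unadjusted p under 0.05 in limma the counts were 1 in LPS minus control, 4 in LPS+RSV minus LPS and 1 in LPS+RSV minus control. TXNIP was among the 4. The matching shares over all genes were 7.88%, 18.6% and 10.5%. The median differences of the 18 genes were -0.01, 0.07 and 0.08.

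SRXN1, sulfiredoxin, which restores peroxiredoxins, was at 7.94, 7.82, 7.46, 7.38 and 7.44 in LPS replicates 1 to 5, against 7.22 to 7.57 in control. Replicates 1 and 2 were highest, and the difference was 0.27 (limma adjusted p = 0.631), or 0.09 without them. GPX2, the glutathione peroxidase of the gut, differed by 0.44 in LPS minus control (limma adjusted p = 0.649) and by -0.50 in LPS+RSV minus LPS (limma adjusted p = 0.236). PRDX2, a cytosolic peroxiredoxin, was 0.25 higher in LPS+RSV than in control (limma adjusted p = 0.464). Its highest LPS+RSV level was 10.72 in replicate 1, the array least like the rest, against 10.16 to 10.43 in replicates 2 to 5.

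GPX1, the widespread cytosolic glutathione peroxidase, ran opposite to NOX1 within groups, with r of -0.75. It was at 6.59, 6.66, 7.03, 6.82 and 6.86 in LPS replicates 1 to 5, and at 6.92 to 7.14 in LPS+RSV. It was low in replicates 1 and 2, where NOX1 was high, and LPS+RSV minus LPS was 0.23 (limma adjusted p = 0.176). TXNIP, an inhibitor of thioredoxin, ran with NOX1 within groups, with r of 0.74, at 10.43, 10.26, 9.83, 9.78 and 9.78 in LPS. Without LPS replicates 1 and 2 the r of TXNIP over 13 arrays was -0.10 and that of GPX1 was -0.41. Between groups TXNIP did not share the NOX1 pattern: LPS+RSV minus LPS was 0.33 (limma adjusted p = 0.178), and 0.77 for its other probe set.

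The list of regulators held transcription factors, receptors and exchange factors known to act on NOX1 or its complex. Of 32 listed, 23 were tested and 9 had no probe set named here. None (0 of 23) was called in any comparison, where the shares over all genes were 0.0254%, 0.0424% and 0%. At an unadjusted p under 0.05 in limma the counts were 4, 2 and 3, beside 7.88%, 18.6% and 10.5% of all genes. The median differences of the 23 genes were 0.06, 0.01 and 0.04.

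IFNGR1, a chain of the receptor for interferon gamma, a cytokine that raises NOX1 in colon cells, was the regulator most like NOX1 within groups, with r of 0.82, or 0.47 without LPS replicates 1 and 2. It was at 8.23, 8.38, 8.33, 8.39 and 8.58 in control, at 8.98, 8.91, 8.39, 8.46 and 8.59 in LPS, and at 8.02, 8.39, 8.34, 8.27 and 8.17 in LPS+RSV. As with NOX1, replicates 1 and 2 were the highest of all arrays and replicate 3 the lowest in LPS. The difference was 0.29 ± 0.11 (SE) in LPS minus control (limma adjusted p = 0.564) and -0.43 ± 0.11 (SE) in LPS+RSV minus LPS (limma adjusted p = 0.127). Without LPS replicates 1 and 2 these became 0.10 and -0.24.

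VAV2, an exchange factor that activates RAC1, was at 8.65, 8.64, 8.56, 8.57 and 8.52 in LPS replicates 1 to 5, against 8.31 to 8.49 in control. Every LPS array was above every control array, as for 1.08% of genes. The difference was 0.16 ± 0.06 (SE, limma adjusted p = 0.452). FOS, a subunit of AP-1, was 0.35 higher in LPS than in control (limma adjusted p = 0.587) and 0.34 higher in LPS+RSV than in control (limma adjusted p = 0.464), and its other probe set gave 0.04 and 0.24. IL4R, a receptor chain for interleukins 4 and 13, differed by 0.15 in LPS minus control (limma adjusted p = 0.568).

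CREB1, a transcription factor of the cyclic AMP pathway, was 0.49 lower in LPS+RSV than in LPS (a log2 difference of -0.49, limma adjusted p = 0.194). Its LPS+RSV levels were 6.27, 7.37, 7.39, 7.03 and 6.99, the lowest in replicate 1, the array least like the rest, and the difference was -0.31 without it. RELA, a subunit of NF-κB, was 0.17 higher in LPS+RSV than in control (limma adjusted p = 0.464).

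Set side by side, the lists differed in how their genes ran with NOX1 within groups, without any test of that difference. The median r was -0.26 for the 7 oxidase genes, -0.06 for removal genes and 0.14 for regulators, against 0.01 over all genes. Without LPS replicates 1 and 2 these medians were -0.20, -0.14 and -0.01, against 0.0048. Genes induced by ERK signalling had a median of 0.37 over 19 tested genes, from -0.36 for CCND1 to 0.65 for DUSP5. That median rested on LPS replicates 1 and 2: it was -0.0056 over the 13 other arrays and -0.16 over the 10 control and LPS+RSV arrays. All 19 ERK-induced genes were higher in LPS than in control, with a median difference of 0.35 and 1 called (ETV4). A negative difference of LPS+RSV minus LPS was found for 18, with a median of -0.27 and again ETV4 called. Of all genes 52.7% were higher in LPS than in control, 5657 of 11804 had a negative difference of LPS+RSV minus LPS, and 0.0254% and 0.0424% were called. The lists were chosen with earlier results of these data known, and the same LPS arrays enter both differences. Neither the counts by direction nor the call of ETV4 are therefore separate evidence.

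**Figure D5:**
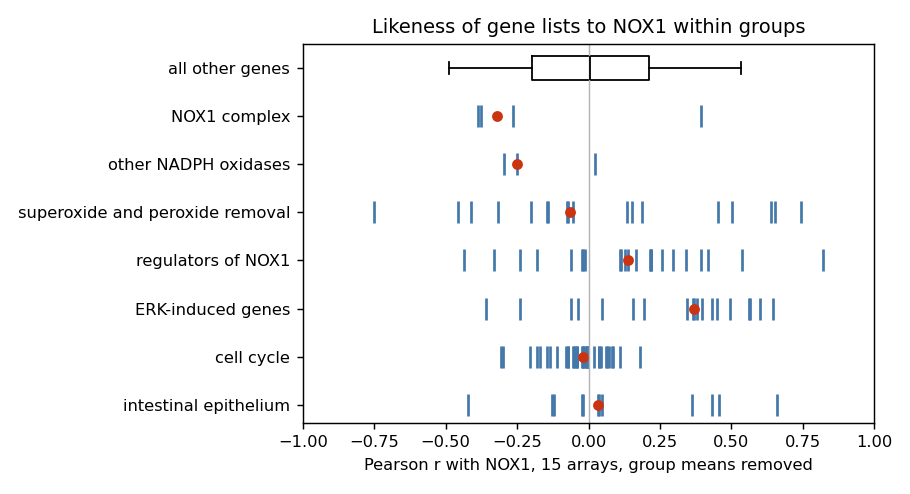
Correlation with NOX1 over 15 arrays with group means removed, for the members of each gene list (ticks, with the median as a red point) and for all other genes (box of quartiles, whiskers from the 5th to the 95th percentile). The genes of the NOX1 complex lie between -0.39 and 0.39, and the cell cycle genes between -0.31 and 0.18.

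Cell cycle genes had higher means in LPS, and within groups their likeness to NOX1 turned on LPS replicates 1 and 2. All 36 tested were higher in LPS than in control, with a median difference of 0.58, and all 36 had a negative difference of LPS+RSV minus LPS, with a median of -0.75, while 0 were called. At an unadjusted p under 0.05 in limma the counts were 11 and 25, beside 7.88% and 18.6% of all genes. The shares of all genes called were 0.0254% and 0.0424%. Of all genes 52.7% were higher in LPS than in control, and 5657 of 11804 had a negative difference of LPS+RSV minus LPS. This list too was chosen with earlier results known, and the same LPS arrays enter both differences, so these counts are not separate evidence. The mean of the 36 cell cycle genes relative to the control mean was 0.32, 0.26, 0.10, 1.00 and 1.15 in LPS replicates 1 to 5. In control replicates 1 to 5 it was 0.61, 0.59, -0.05, -0.25 and -0.90. In LPS+RSV replicates 1 to 5 it was -0.45, 0.59, -0.03, -0.28 and -0.78, so the 3 groups overlapped. Among the LPS arrays it was highest in replicates 4 and 5, whereas NOX1 was highest in replicates 1 and 2. The median r of the list within groups was -0.02 over 15 arrays. It was 0.52 over the 13 arrays without LPS replicates 1 and 2, and 0.32 over the 10 control and LPS+RSV arrays, where the medians over all genes were 0.0048 and 0.03. The part of these genes in the NOX1 difference was not tested.

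Markers of other cells were examined beside NOX1. Of 13 fibroblast and blood cell markers 5 were tested, DCN lay below the filter and 7 had no probe set named here, COL1A1 and PTPRC among them. Their mean level lay between 6.52 and 6.71 in control, 6.77 and 6.86 in LPS, and 6.59 and 6.88 in LPS+RSV. The 5 genes had median differences of 0.14 in LPS minus control and 0.01 in LPS+RSV minus LPS, with 4 and 3 of them higher. LUM, a proteoglycan of connective tissue named because it differed most, had means of 4.76 in control, 5.43 in LPS and 4.46 in LPS+RSV. Only the LPS mean lay above the filter's threshold of 5.03 to 5.09, so LUM may have been kept through its LPS arrays. Its differences, 0.68 in LPS minus control and -0.98 in LPS+RSV minus LPS, are therefore given as a description without a test. Of 10 goblet, Paneth and endocrine markers 4 were tested and 1 lay below the filter. In the 3 comparisons 0 of these 4 were called, beside 0.0254%, 0.0424% and 0% of all genes. The part of these markers in the NOX1 result was not tested.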

How the data were processed

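Expression was measured on Affymetrix whole-transcript arrays, 15 in all, 5 per group. The authors deposited log2 expression values, 1 per probe set and array, made with RMA per the submitters' processing notes; its version, and the genome build of the array annotation, were not given in the sources used here. Of 53617 probe sets, 16098 carried 1 gene symbol of the platform annotation, which can be old, and 37519 were unnamed here. Levels of different probe sets were not compared with each other.

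Each of the 14884 symbols was represented by its brightest probe set (779 had several), and genes above the 40th percentile of an array on at least 5 arrays were kept, which left 11804. Each gene was fitted in limma 3.58.1 (lmFit and eBayes, R 4.3.3) with 3 group means over all 15 arrays, with Benjamini-Hochberg adjustment over all genes tested. NOX1 and the gene lists, and the promoter motifs, were chosen with earlier results of these data, or the sequence, known. Likeness was Pearson's r and Spearman's rho with NOX1 over the 15 arrays, with and without group means. The genes open to naming were NOX1 and tested NADPH oxidase genes; the 3 of lowest p in each comparison among removal genes and regulators; the 10 highest and 5 lowest in each likeness; the 5 largest differences in each direction; the 5 largest SDs in LPS; and called genes. Members of other lists are named as examples. Promoter windows came from RefSeq (GRCh38.p14). Alternatives covered normalization, filter, probe sets, moderation, array weights, the groups fitted, a block for the replicate number, and leaving out each array; leaving out LPS replicates 1 and 2 together was added after the data were seen. The scripts were tested on simulated data. The number of arrays limits the precision.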

Additional observations from a re-analysis of the deposited data

Results flagged for a closer look

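In groups of 5 arrays, single arrays lying far from the other 4 by Dixon's criterion were looked for in 70 genes, and were found in 8 of 210 groups, where chance gives about 1 in 20. NOX1 itself was among them: its highest LPS+RSV array, replicate 2 at 7.13, lay above the next at 6.85, with a gap of 0.78 of the group's range. Without that array the NOX1 difference of LPS+RSV minus control was 0.03, against 0.09 with it.

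Each of the following is the highest or lowest array of its own group only. Of the LPS+RSV arrays, SRXN1 was highest in replicate 1 at 7.92, and GPX2 was highest in replicate 2 at 6.89, with the next at 6.03. IL4R was highest of them in replicate 2 at 7.98, with the next at 7.94. Among genes like or opposite to NOX1, HKDC1 was lowest of the control arrays in replicate 3 at 7.19. PARM1 was highest of the LPS+RSV arrays in replicate 3 at 9.69, and PFDN5 was highest of the LPS arrays in replicate 3 at 7.26. MT2A, a metallothionein, was lowest of the control arrays in replicate 5 at 6.08.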

How the results depend on the processing

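The NOX1 differences kept their direction under 4 other scalings or summaries and each array left out, at 1.83 to 2.26 for LPS minus control and -2.16 to -1.74 for LPS+RSV minus LPS. NOX1 has 1 probe set, so a mean of probe sets could not be run. Without LPS replicates 1 and 2 its SD in LPS was 0.37. Paired by replicate number (block), the NOX1 differences were 2.03, -1.94 and 0.09 with SDs of 0.79, 0.66 and 0.14. The labels do not say whether equal numbers pair the samples. With group means removed, 4 of 15 same-numbered pairs correlated over 0.1, with a median of -0.19. Between control and LPS+RSV these correlations were -0.44, 0.71, 0.06, 0.10 and 0.43 for replicates 1 to 5.

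The counts of called genes over all genes depended on the setting, and the cause was not tested. In LPS minus control, 3 genes became 15 with array weights, 6 with the replicate block and 0 in a fit to the 2 groups (1101 at an unadjusted p under 0.05 in limma); each array left out gave 1 to 10, the most without LPS replicate 3. In LPS+RSV minus LPS, 5 became 12 with cyclic loess, 25 with array weights, 3 with the block, 0 with the 2 groups (1897 unadjusted) and 1 without LPS replicates 1 and 2; each array left out gave 1 to 121, with 102 without LPS replicate 3 and 121 without LPS+RSV replicate 2. The counts of oxidase, removal and regulator genes stayed at 0 under all settings run.

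Uncalled differences near 0 in LPS minus control turned sign. NOXO1 was 0.0343 without LPS replicates 1 and 2, and -0.0651 to 0.0302 over the arrays left out. NOXA1 was -0.0053 after median centring, -0.0431 with array weights, and -0.0596 to 0.0434 over the arrays left out. SH3PXD2A ranged from -0.0816 to 0.0137, and DUOX2 from -0.0482 to 0.0650, over the arrays left out, and DUOX2 was -0.0073 with cyclic loess. Without LPS replicates 1 and 2, the arrays farthest from the NOX1 median, the likeness of EMP3 turned to -0.0771, and those of GUCA2A, TFF1, KRT20 and TXNIP, among others, also turned negative.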
